A study of Homo sapiens with 6 samples.

Results

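A group of interferon-stimulated antiviral genes, 10 of the 26364 gene symbols counted in each library, is described here: IFITM1, IFITM2, IFITM3, MX1, MX2, IFI6, IFI27, IFI44, IFI44L and IFI35. The 10 were taken by symbol, and the set was put together after earlier results on these same libraries were known, so their levels and differences between the groups are descriptions and carry no p-value. The cells were ZR-75-30, an established breast adenocarcinoma line, infected with lentivirus made from the empty vector pLVX (3 control libraries) or from pLVX-CDK12, which carries the kinase gene CDK12 (3 CDK12 libraries). No interferon or other treatment is named in the labels for either group, both groups had been infected with a lentivirus, and the time after infection is not given. Each group has 3 biological replicates per the labels, without word on whether these were separate infections, so spread between libraries may be partly technical.

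Type I and type III interferons bind receptors that activate the kinases JAK1 and TYK2, which phosphorylate STAT proteins. Together with IRF9 these form the factor ISGF3, which binds interferon-stimulated response elements in the promoters of antiviral genes. The proteins studied here act at different places in the cell. IFITM proteins sit in the plasma membrane and endosomes and hinder the fusion of enveloped viruses with cell membranes. MX1 and MX2 are dynamin-like GTPases that act on incoming viral ribonucleoproteins or capsids. IFI6 and IFI27 are small hydrophobic proteins of the same family, IFI44 and IFI44L are a related pair of cytoplasmic proteins, and IFI35 is a leucine zipper protein that pairs with NMI.

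The labels and the cells were checked first. Libraries held 21178163 to 26543653 counts, and CDK12 was at 72.7 to 81.7 CPM (counts scaled to library size by TMM) in controls and reached 2007 to 2238 CPM after CDK12 virus, so every library matched its label. A count of 3, which a count of 0 allows, is 0.111 to 0.144 CPM (counting error only). The 7 luminal epithelial markers summed to 13503 to 14141 CPM in controls and 11856 to 12405 CPM with CDK12. Most of this was ERBB2, with means of 8650 and 7352 CPM. ERBB2, KRT8, KRT18 and GATA3 passed as lower, GATA3 not without control replicate 1 (edgeR adjusted p = 0.0762). KRT19, EPCAM and CDH1 did not pass, and CDH1 lay in the other direction (log2 fold change 0.16). Of 9 leukocyte markers, CLEC4C had no count and CD3E, MS4A1, LYZ and LILRA4 had at most 9 counts in any library. The list summed to 39.4 to 43.0 CPM in controls and 27.6 to 31.6 CPM with CDK12, most of it from ITGAM. PTPRC fell from 2.95 ± 0.11 to 0.358 ± 0.061 CPM (SD, n = 3; edgeR adjusted p = 4.51e-11) and ITGAM from 37.3 to 27.9 CPM. CD14 rose from 0.476 ± 0.133 to 0.851 ± 0.191 CPM (edgeR adjusted p = 0.0339), but missed the threshold in the DESeq2 Wald test, with the replicate block or without any one of control replicates 1 and 3 and CDK12 replicates 1 and 3. The part of these markers in the results was not tested. The 6 fibroblast markers summed to 46.6 to 51.4 CPM in controls and 60.2 to 71.1 CPM with CDK12, nearly all from COL1A1, which rose. COL3A1, the only other one tested, fell from 0.602 ± 0.030 to 0.109 ± 0.066 CPM (edgeR adjusted p = 0.000181), and COL1A2 had 5, 8 and 7 counts in controls and 3, 0 and 1 with CDK12. The 4 endothelial markers summed to 2.44 to 3.29 CPM in controls and 1.56 to 2.17 CPM with CDK12.

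Promoter sequence was not read when the genes were chosen by name. Response elements are, however, part of what makes a gene interferon-stimulated, so the search describes the set and is no independent check. RefSeq promoter windows on GRCh38.p14, which span each annotated start and lie mostly upstream of it, were available for 8 of the 10 genes in 12 windows. IFITM2 and MX2 have no window. These are also the 2 genes whose libraries overlapped between the groups, so motif and difference cannot be compared within the set. The core of the interferon-stimulated response element was searched on both strands as GAAA, any 2 bases and GAAA again. It was found for 7 of the 8 genes (87.5%) and for 4.38% of all 27305 genes with a window; by window, for 10 of 12 and for 3.57% of 35116. The stretches that hold the matches are shown with the matches in capitals, read 5′ to 3′ on the gene's strand. Positions are counted from the annotated start.

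The IFI6 stretch (chr1:27672263-27672362, minus strand) holds 3 matches beginning at -156, -115 and -93, and 29 bases of the window occur in a second exact copy.
IFI6: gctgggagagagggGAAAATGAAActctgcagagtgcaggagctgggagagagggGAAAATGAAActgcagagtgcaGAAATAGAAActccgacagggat
The IFI44L stretch (chr1:78620268-78620397, plus strand) holds 2 matches, at -164 and -73, each inside 1 of 2 exact copies of a segment of 85 bases in the window.
IFI44L: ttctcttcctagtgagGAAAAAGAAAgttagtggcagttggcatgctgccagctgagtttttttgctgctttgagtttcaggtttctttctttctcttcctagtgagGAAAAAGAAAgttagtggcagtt
The IFI44 stretch (chr1:78649748-78649787, plus strand) holds 1 match on the opposite strand at -18.
IFI44: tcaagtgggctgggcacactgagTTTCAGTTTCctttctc
The IFITM1 stretch (chr11:313990-314047, plus strand) has matches at -40 and -6, the latter reaching over the annotated start.
IFITM1: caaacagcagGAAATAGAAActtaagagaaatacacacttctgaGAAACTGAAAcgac
The IFITM3 stretch (chr11:320877-320920, minus strand) has 2 matches at -52 and -35.
IFITM3: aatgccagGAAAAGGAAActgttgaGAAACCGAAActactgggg
The IFI27 stretch (chr14:94110616-94110660, plus strand) has a match on the opposite strand at -108 and one on its own strand at -95.
IFI27: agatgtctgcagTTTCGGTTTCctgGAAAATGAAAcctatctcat
The MX1 stretch (chr21:41420558-41420587, plus strand) has its match just inside the transcribed part, at position 12 after the start.
MX1: cgagcagaaatGAAACCGAAActgaattgt
IFI35 is shown for contrast (chr17:43006739-43006783, plus strand): no such core was found in its window, and the capitals mark a TTCNNNGAA, the core of the gamma-activated site, at -22.
IFI35: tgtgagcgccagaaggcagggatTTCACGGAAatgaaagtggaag

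TTCNNNGAA was found for 4 of the 8 genes, namely IFI27, IFI35, IFITM1 and MX1, and for 9.38% of all genes with a window; in IFI27, IFITM1 and MX1 it overlaps a response element core by a few bases. For MX1, the response element core was found in 2 of 3 windows, which belong to different annotated starts. A letter match is a description and does not show that a factor binds there.

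Of the 10 genes, 8 were lower in every CDK12 library than in every control library, and the other 2, IFITM2 and MX2, overlapped between the groups. No gene of the set was higher. The same 8 passed an adjusted p of 0.05 in the fit across all 14665 genes tested, in which 35.1% of genes passed in either direction and 18.9% as lower; libraries of the groups did not overlap for 45.6% of all genes, and for 23.6% as lower. Because this contrast was in view when the set was made, nothing is read from the counts. Of the 10, 6 were at least 2-fold lower, and 1.53% of all genes passed as at least 2-fold lower. The median log2 fold change was -1.68 over the 10 and 0.00 over all genes tested. Bulk counts cannot tell fewer expressing cells from less RNA per cell.

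**Figure D1:**
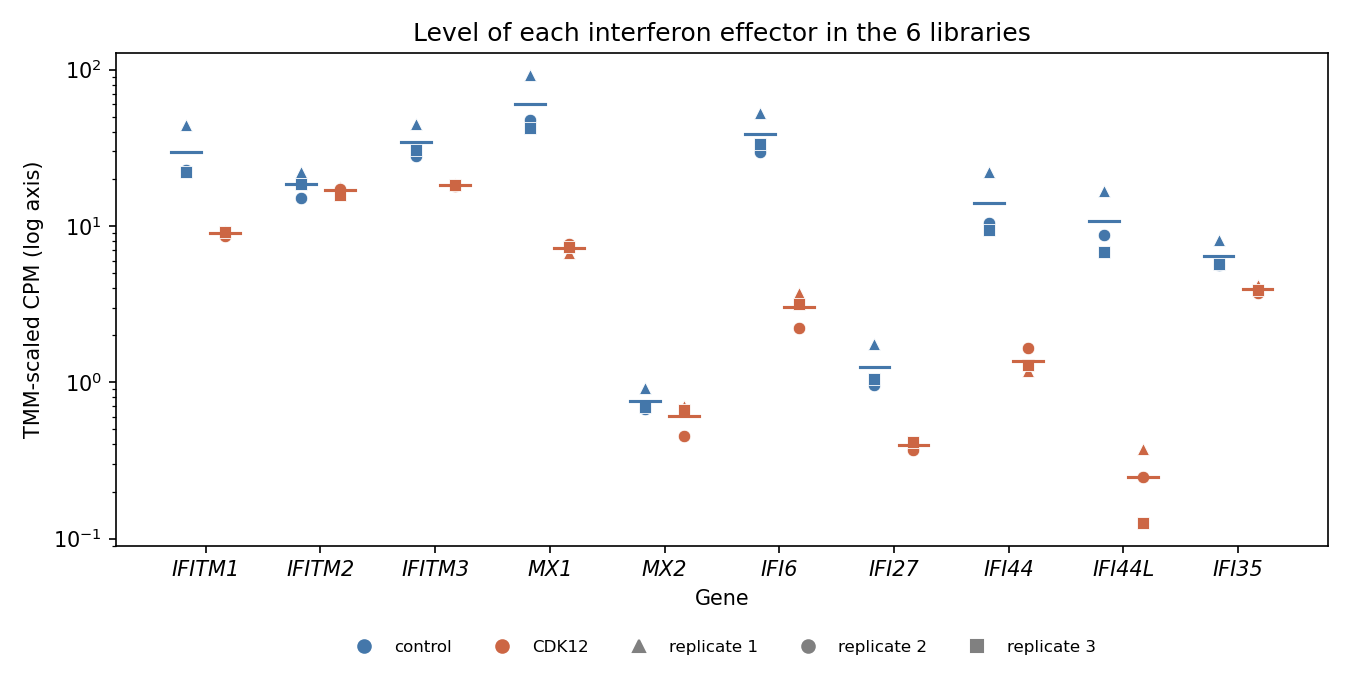
TMM-scaled CPM on a log axis for each of the 10 genes, with 1 symbol per library (shape gives the replicate number) and a bar at the mean of each group. Control replicate 1 lies highest among the controls for all 10 genes, and only IFITM2 and MX2 overlap between the groups, from 15.1 to 22.1 CPM for IFITM2 and from 0.453 to 0.922 CPM for MX2.

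Levels between genes can be compared only per length, here as CPM per kilobase of merged exons (GENCODE 29). In the controls IFI6 stood at 44.9 ± 14.4 CPM per kilobase (SD, n = 3), IFITM1 at 28.5 ± 12.1, IFITM3 at 28.5 ± 7.35, IFITM2 at 17.5 ± 3.33 and MX1 at 15.03 ± 6.73. IFI44 followed with 8.30 ± 4.14, IFI35 with 5.19 ± 1.15, IFI44L with 1.83 ± 0.89, IFI27 with 1.52 ± 0.53 and MX2 with 0.250 ± 0.046 CPM per kilobase. The ranges of mean ± SD of neighbours in this order overlap, except between IFITM3 and IFITM2, between IFI35 and IFI44L and between IFI27 and MX2. In the CDK12 libraries the order was led by IFITM2 (15.995 ± 0.93 CPM per kilobase) and IFITM3 (15.1 ± 0.21), ahead of IFITM1 (8.67 ± 0.36), IFI6 (3.51 ± 0.87) and IFI35 (3.16 ± 0.20). The ranges of IFITM2 and IFITM3 overlap, and in CDK12 replicate 3 IFITM3 was the higher (15.19 against 14.94). IFI6 thus stood above the IFITM genes in controls and below them with CDK12, and IFI44L came last with CDK12, with 0.0422 ± 0.0210 CPM per kilobase.

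Among the IFITM genes, which lie side by side on chromosome 11, IFITM1 and IFITM3 were lower with CDK12 and IFITM2 was not separated. IFITM1, found mainly at the plasma membrane, stood at 44.3, 22.7 and 22.1 CPM in control replicates 1, 2 and 3, and at 9.32, 8.60 and 9.16 CPM in the CDK12 libraries. Every control was at least 2.38 times the highest CDK12 library, and the log2 fold change was -1.72 (SE 0.17), a 3.29-fold lower level. Here and below, the SE comes from the edgeR fit and is not the spread between libraries. IFITM3, the endosomal member, stood at 44.7, 28.2 and 30.7 CPM in controls and at 18.6, 18.1 and 18.4 CPM with CDK12. Its groups were nearer to each other, with a log2 fold change of -0.91 (SE 0.10) or 1.88-fold, and its 3 CDK12 libraries differed by only 1.03 times from lowest to highest. IFITM2, also endosomal, stood at 22.1, 15.1 and 18.5 CPM in controls and at 17.6, 17.3 and 15.8 CPM with CDK12. All 3 CDK12 values of IFITM2 fell inside the range of the controls, and the log2 fold change was -0.14 (SE 0.09). Without control replicate 1 it was 0.01, and without control replicate 2 it was -0.26 and passed the threshold. The value of IFITM2 thus depends on which control library is left out, and nothing is read from that call.

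The makeup of the IFITM transcripts shifted with these differences. IFITM1 made up 39.9%, 34.4% and 31.1% of the counts of the 3 genes in controls and 20.5%, 19.6% and 21.1% with CDK12. The share of IFITM2 went the other way, from 19.9%, 22.8% and 25.9% to 38.7%, 39.3% and 36.4%. The level of IFITM2 did not rise (means of 18.5 and 16.9 CPM), so its larger share reflects the lower counts of IFITM1 and IFITM3. IFITM3 held a like share throughout, 40.3% to 43.1% in controls and 40.8% to 42.5% with CDK12. The exact 95% binomial intervals of the IFITM2 shares reached at most 28.0% in controls and began at 33.5% or above with CDK12 (counting error only). The 3 genes are near copies: of the 100-base windows of IFITM1 transcripts in GENCODE 29, 27.5% occur unchanged in another gene of the trio, against 21.6% for IFITM2 and 3.79% for IFITM3. How the authors' counting treated such reads is not given in the sources used here, so the split between IFITM1 and IFITM2 is uncertain. None of the other 7 genes shares such a window with another gene symbol in the files.

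MX1 and MX2, neighbours on chromosome 21, differed in level and in response. MX1, which blocks influenza and other RNA viruses, had the most counts of the 10 genes in every control library, at 91.9, 47.9 and 42.3 CPM. It stood at 6.76, 7.62 and 7.29 CPM with CDK12, so that the lowest control was 5.56 times the highest CDK12 library. The log2 fold change of MX1 was -3.07 (SE 0.19), an 8.41-fold lower level. MX2, known for restriction of HIV-1, was near the limit of counting, with 21, 14 and 17 counts in controls and 19, 11 and 16 with CDK12. Its log2 fold change was -0.31 (SE 0.29), and the ratio of summed counts, control over CDK12, was 1.25 with a counting interval from 0.821 to 1.89. MX2 made up 0.993% to 1.604% of the MX counts in controls and 5.61% to 9.45% with CDK12. The level of MX2 did not rise, so its larger share reflects the lower counts of MX1.

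IFI6 and IFI27, small hydrophobic proteins linked to mitochondria and the endoplasmic reticulum, were both lower but from unlike levels. IFI6, which protects against flaviviruses and apoptosis, stood at 53.0, 29.9 and 33.6 CPM in controls and at 3.71, 2.22 and 3.17 CPM with CDK12. The lowest control was 8.04 times the highest CDK12 library, and the log2 fold change was -3.67 (SE 0.17) or 12.7-fold. IFI27 was sparse in both groups, with 40, 20 and 26 counts in controls and 11, 9 and 10 with CDK12. Its groups did not overlap, at 0.959 to 1.76 CPM against 0.370 to 0.417 CPM, with a log2 fold change of -1.65 (SE 0.30) or 3.13-fold. By summed counts the ratio for IFI27 was 3.16, with a counting interval from 2.06 to 4.96.

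IFI44 and IFI44L, a pair of neighbouring genes on chromosome 1, held the largest difference of the set. IFI44L, a feedback regulator and common marker of interferon exposure, stood at 16.7, 8.72 and 6.85 CPM in controls and at 0.371, 0.247 and 0.125 CPM with CDK12. These CDK12 values are 10, 6 and 3 counts, the last at the floor that a count of 0 allows. The log2 fold change was -5.38 (SE 0.36), a 41.6-fold lower level, and the ratio of summed counts was 42.4 with a counting interval from 26.9 to 70.8. IFI44 stood at 22.04, 10.4 and 9.49 CPM in controls and at 1.19, 1.65 and 1.29 CPM with CDK12, with a log2 fold change of -3.35 (SE 0.26) or 10.2-fold. IFI44L made up 41.9% to 45.5% of the counts of the pair in controls and 8.82% to 23.8% with CDK12, where the exact interval of a single library was as wide as 1.86% to 23.7%.

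IFI35, which acts with NMI in innate signalling, differed least among the 8 genes whose groups did not overlap. It stood at 8.12, 5.61 and 5.68 CPM in controls and at 4.20, 3.70 and 3.92 CPM with CDK12. The lowest control was 1.34 times the highest CDK12 library, and the log2 fold change was -0.71 (SE 0.13) or 1.64-fold.

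The controls were not alike for these genes. Control replicate 1 was the highest control for all 10 genes, while it was so for 31.9% of all genes tested. It was also the highest control for 37 of 43 other interferon-stimulated effectors. It reached at least 1.4 times the mean of the other 2 controls for 8 of the 10, against 2.61% of all genes. The ratio was 2.21 for IFI44, 2.14 for IFI44L, 2.04 for MX1, 1.98 for IFITM1, 1.74 for IFI27, 1.67 for IFI6, 1.52 for IFITM3 and 1.44 for IFI35. MX2 (1.36) and IFITM2 (1.32) had the lowest ratios and are also the 2 genes not separated between the groups. The 10 genes together summed to 305.6 CPM in control replicate 1, 170 and 171 CPM in the other controls, and between 60.2 and 62.9 CPM with CDK12. For most of the genes the CDK12 libraries were closer to each other: the coefficient of variation of MX1 was 44.8% in controls and 5.98% with CDK12, and that of IFITM3 25.8% and 1.397%. It was 32.1% and 24.9% for IFI6, and higher with CDK12 for IFI44L (48.5% and 49.7%) and MX2 (18.4% and 22.4%), where counts were few. Much of the control spread of MX1 and IFITM3 came from replicate 1. In control replicates 2 and 3, MX1 stood at 47.9 and 42.3 CPM and IFITM3 at 28.2 and 30.7 CPM.

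**Figure D2:**
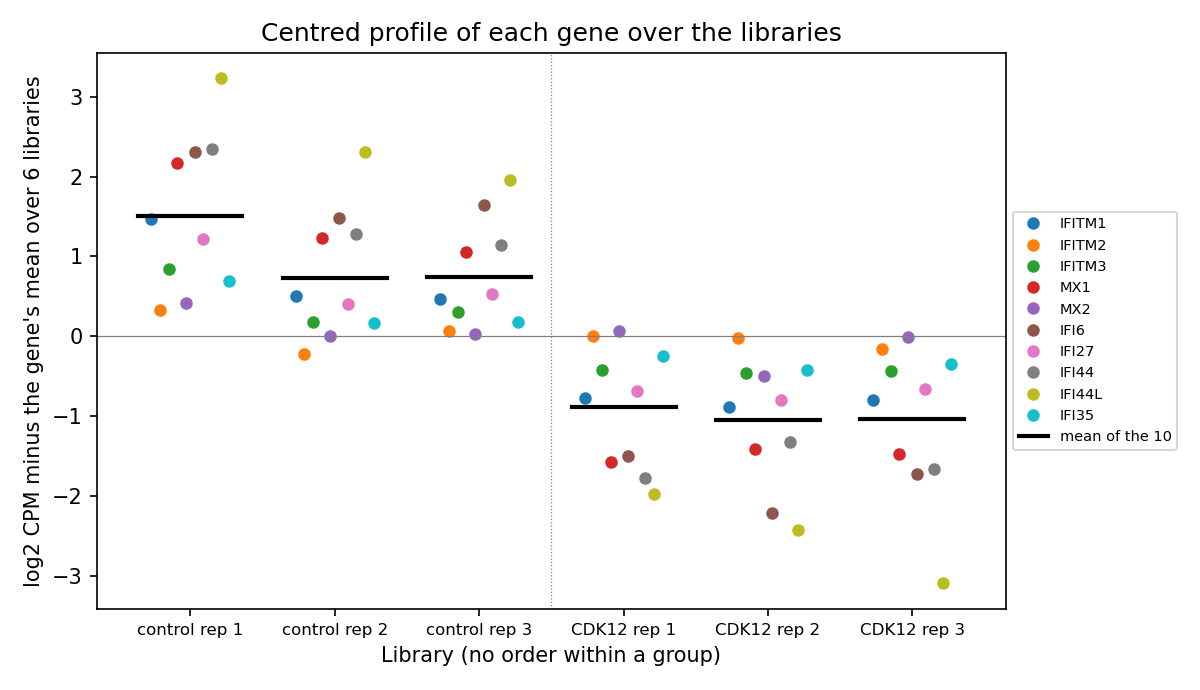
Centred log2 CPM (each gene minus its own mean over the 6 libraries) for the 10 genes in each library, with a black bar at their mean. The mean lies at 1.502 in control replicate 1, at 0.73 and 0.74 in the other controls and between -1.05 and -0.89 in the CDK12 libraries.

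Without control replicate 1 the same 8 genes passed the threshold as lower, where 15.2% of all 14908 genes then tested did so and 27.6% in either direction. With 1 of the other 5 libraries left out, 8 or 9 did, against 17.5% of all genes without control replicate 2, 14.8% without control replicate 3 and 18.4%, 15.8% and 17.3% without CDK12 replicates 1, 2 and 3. Nothing is read from these counts either. When control replicate 1 was left out, the fold was smaller for each of the 10. It was 30.1-fold for IFI44L, 10.4-fold for IFI6, 7.24-fold for IFI44, 6.24-fold for MX1, 2.51-fold for IFI27 and 2.48-fold for IFITM1. IFITM3 was then 1.61-fold and IFI35 1.43-fold lower. The median log2 fold change over the 10 moved from -1.68 to -1.32, and the order of the 10 genes by fold changed only by IFI27 passing IFITM1.

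**Figure D3:**
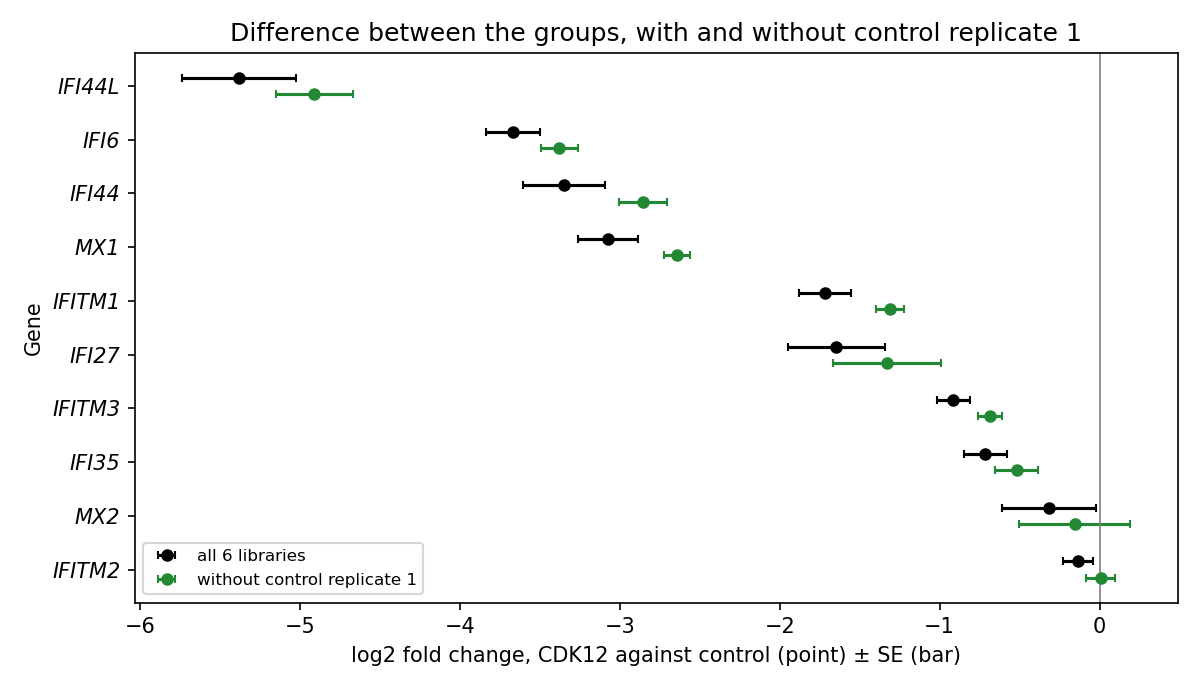
Log2 fold change of each gene, CDK12 against control, with SE bars, from all 6 libraries (black) and without control replicate 1 (green). The values run from -5.38 for IFI44L to -0.14 for IFITM2 with all libraries, and from -4.91 to 0.01 without that library.

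Outside the set, the genes with the most similar profile were taken by the root mean square difference between centred log2 CPM and the mean profile of the 10 over the 6 libraries. They were ISG15, a ubiquitin-like modifier (difference 0.118), OASL, an interferon-induced relative of the 2′-5′-oligoadenylate synthetases (0.181), DDX60, a helicase-like protein (0.195), LRRK2, a kinase known from Parkinson disease (0.204), and IRF9 (0.215). The median difference over all other genes was 1.03. Within the set IFITM1 (0.192) and IFI27 (0.283) lay closest to the mean profile and IFI44L (1.54) farthest. The rest lay from 0.515 (MX1) to 0.945 (IFITM2), so a profile near the mean need not be near each of the 10.

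Upstream of the effectors, ligand transcripts were nearly absent and the tested receptors changed little. Of 21 interferon genes, 13 had no count in any library and none passed the filter on low counts with all 6 libraries. Among them IFNL2 had 10, 8 and 8 counts in controls and 0, 1 and 0 with CDK12, and IFNL3 had 7, 10 and 11 against 2, 6 and 2; these 2 genes are near copies of each other. Without control replicate 1, IFNL3 passed the filter and was lower (log2 fold change -1.76, edgeR adjusted p = 0.016). IFNB1 had at most 4 counts in a library, and IFNL1 had 7, 2 and 9 in controls and 0, 4 and 1 with CDK12. All 21 genes together summed to 1.23 to 1.34 CPM in controls and 0.149 to 0.535 CPM with CDK12. Of 6 receptor genes, 5 were tested and 1 fell: IFNGR1, the ligand-binding chain for interferon gamma, from 80.3 ± 2.43 to 67.3 ± 3.43 CPM (edgeR adjusted p = 0.000199). The type I receptor chains did not pass, IFNAR1 with 86.9 ± 1.32 and 84.3 ± 5.94 CPM (log2 fold change -0.04, SE 0.05) and IFNAR2 with 7.24 ± 0.22 and 7.64 ± 0.84 CPM (0.08, SE 0.10). IFNGR2 (log2 fold change 0.04) and IL10RB (0.15) did not pass either, though IL10RB did with upper-quartile factors (edgeR adjusted p = 0.0226) and with total counts (0.0185). The receptor gene not tested, IFNLR1, had 10, 2 and 2 counts in controls and 12, 8 and 9 with CDK12.

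The signal transducers fell more. Of 7 tested, 6 fell and JAK2 did not pass (log2 fold change -0.16, SE 0.08). IRF9 fell from 74.2 ± 11.2 to 22.8 ± 1.04 CPM (a log2 fold change of -1.71 with SE 0.08; adjusted p = 7.89e-16 in edgeR) and STAT2 from 67.0 ± 7.17 to 48.7 ± 1.59 CPM (-0.46, SE 0.06). JAK1 (-0.20), TYK2 (-0.23) and STAT3 (-0.21) fell less. Control replicate 1 stood above the mean of the other controls by 1.29 times for IRF9 and 1.20 times for STAT2, and both genes passed without it, with log2 fold changes of -1.57 and -0.37. Of 6 interferon regulatory factors tested, IRF7 (-0.54) and IRF1 (-0.23) fell and the other 4 did not pass. Of 5 inhibitors of the pathway, the ISG15 protease gene USP18 fell (-0.78), the phosphatase gene PTPN6 rose (0.205, but not past the threshold without control replicate 2 or without CDK12 replicate 3), and SOCS1 (0.13), SOCS3 (0.05) and PIAS1 (0.05) did not pass.

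Of 9 nucleic acid sensors and adaptors tested, 4 fell and 2 rose. The RNA sensor genes DDX58 (log2 fold change -1.39), DHX58 (-0.67) and IFIH1 (-0.60) fell, as did the kinase gene IKBKE (-0.61). MB21D1, the gene of the DNA sensor cGAS (0.82), and TBK1 (0.13) rose, and neither passed without control replicate 1 (edgeR adjusted p = 0.104 and 0.108), without control replicate 2 or with the DESeq2 Wald test. Of 42 other interferon-stimulated effectors, 33 fell, 1, ISG20, rose (0.195) and 8 did not pass, with a median of -0.53. The smallest adjusted p-values were those of OAS1 (-3.32), OAS3 (-2.70), OAS2 (-3.98) and IFIT1 (-3.78), which sense or bind foreign RNA. Among those that did not pass, TRIM22 (0.04) and GBP2 (-0.03) were the nearest to no difference. Without control replicate 1, 32 fell. Together with the relatives by structure or name given below, and without the 10 effectors, 83 listed genes were tested. Of these, 50 fell and 7 rose (18.9% and 16.2% of all genes did so), with a median log2 fold change of -0.29. The rises include IFITM10, DNM1 and IFI30 from among those relatives. ISG20 missed the threshold in the DESeq2 Wald test and without any one of control replicates 2 and 3 and CDK12 replicate 3. The lists were written with earlier results of these data known.

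**Figure D4:**
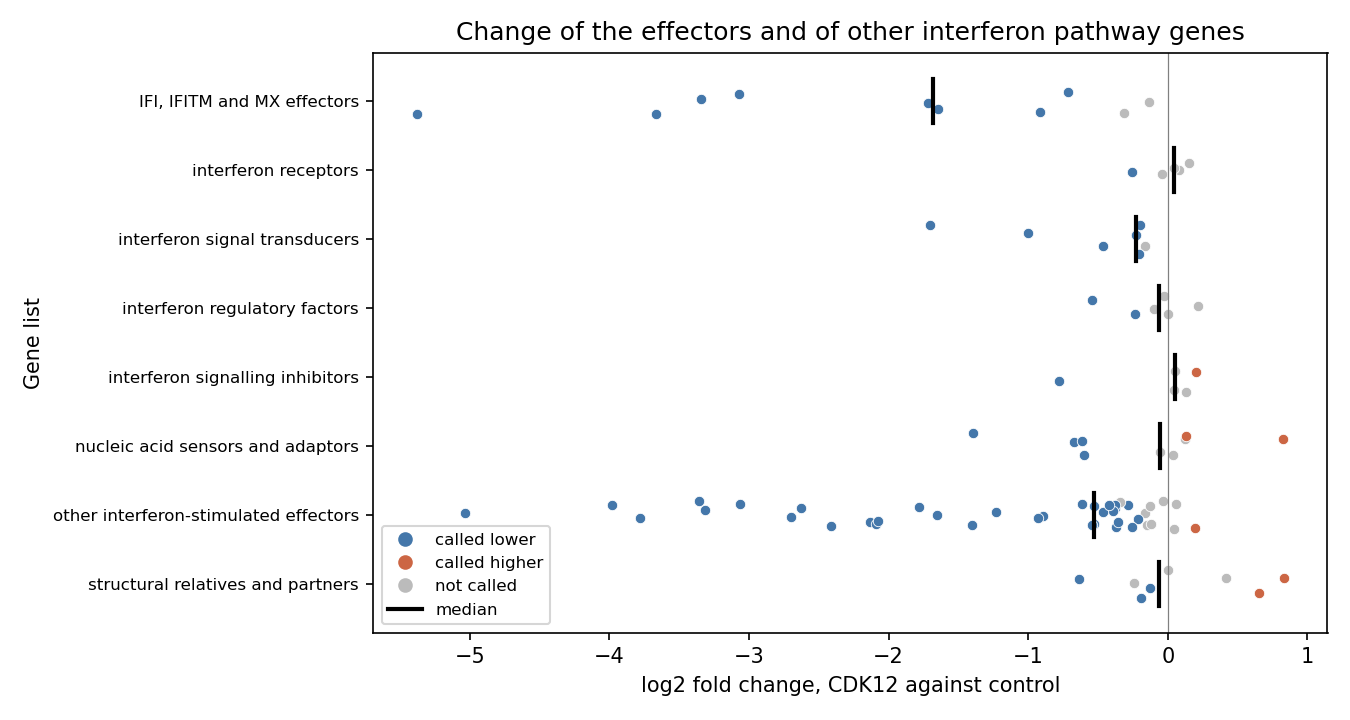
Log2 fold change (CDK12 against control) of every tested gene of each list, coloured by whether it was called lower, higher or not, with a bar at the median and vertical scatter for legibility only. The median is -1.68 for the 10 effectors, -0.53 for the other interferon-stimulated effectors and 0.04 for the receptors.

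Relatives by structure or name did not share one direction. IFI27L1, which is related to IFI27 and lies beside it, stood at 3.34 ± 0.24 and 3.33 ± 0.15 CPM (log2 fold change 0.00, SE 0.14), and IFI27L2 at 0.493 ± 0.149 and 0.662 ± 0.146 CPM (0.41, SE 0.33); neither passed. IFITM10, a distant relative of the IFITM genes, rose from 11.4 ± 0.73 to 17.9 ± 0.68 CPM (edgeR adjusted p = 1.86e-07). IFITM5, the bone-specific member, had at most 3 counts and was not tested. NMI, the partner of IFI35, stood at 1.11 ± 0.49 and 0.908 ± 0.214 CPM and did not pass. Of the dynamins, membrane-cutting GTPases related to the MX proteins, DNM1 rose (0.83), while DNM2 (-0.19), DNM3 (-0.63) and DNM1L (-0.13) fell. DNM1L did not pass with upper-quartile factors (-0.09), with total counts (-0.09), with the DESeq2 Wald test or without either of control replicates 2 and 3 or CDK12 replicates 1 and 3. In all, 3 of the 8 tested relatives fell and 2 rose. Of the other genes with an IFI symbol, 5 of 6 tested fell, IFIH1 and the 4 IFIT genes, which are also counted in the lists above, and IFI30, a lysosomal thiol reductase, rose from 13.02 ± 0.32 to 16.1 ± 0.72 CPM.

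The genes lying next to the effectors were chosen by position alone, as the 3 nearest tested genes on each side of each gene in RefSeq order. Of these 36 neighbours, 6 fell and 6 rose (33.3%, against 35.1% of all genes), with a median log2 fold change of -0.00265. Around IFI6, where the effector was 12.7-fold lower, FAM76A (-0.04), STX12 (-0.05) and PPP1R8 (-0.03) on one side and FGR (0.25) and WASF2 (0.01) on the other did not pass, and AHDC1 (-0.22) fell. Beside the MX genes BACE2 (-0.14) and TMPRSS2 (-0.23) fell, and beside the IFITM genes PKP3 (-0.30) fell and ATHL1 (0.21) rose. BACE2 did not pass with total counts, nor ATHL1 with the DESeq2 Wald test or without any one of control replicates 2 and 3 and CDK12 replicate 3. A single neighbour differed by at least 2-fold, NEXN-AS1, an antisense gene near IFI44L with 4, 2 and 1 counts in controls and 18, 14 and 19 with CDK12. ADGRL2, the nearest tested gene beyond IFI44, fell from 2.33 ± 0.227 to 1.22 ± 0.205 CPM (SD, n = 3; edgeR adjusted p = 0.000375).

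**Figure D5:**
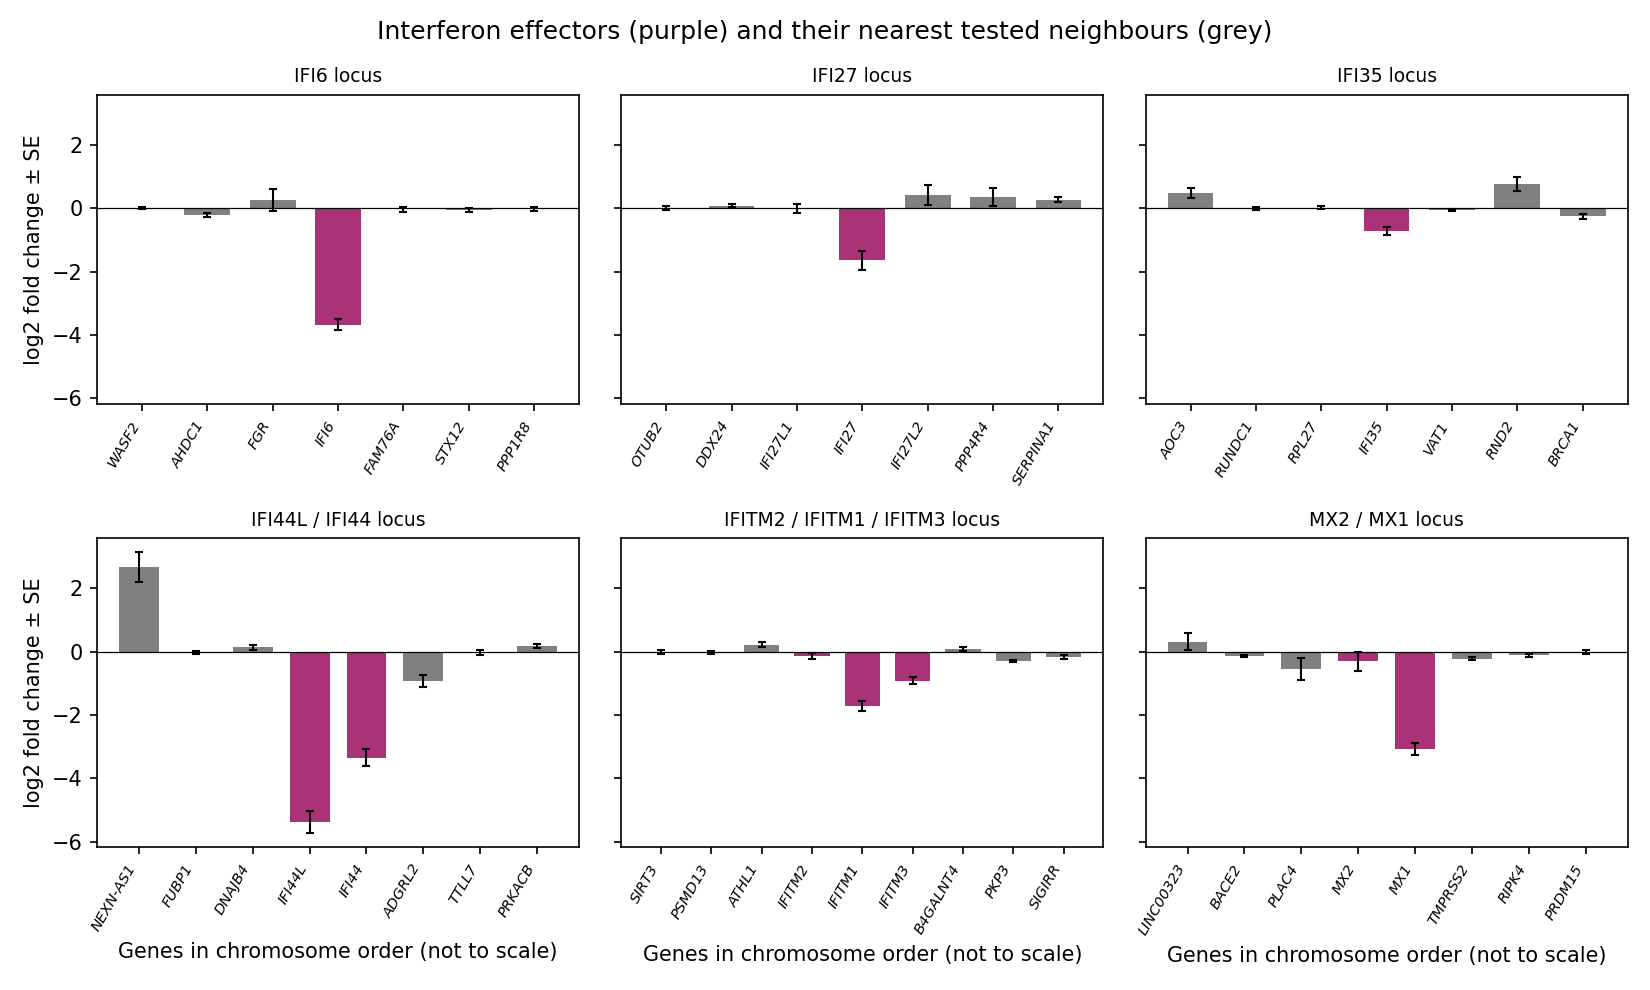
Log2 fold change (bars) with SE for the effectors (purple) and the 3 nearest tested genes on each side (grey), in chromosome order at 6 loci. Among the grey bars NEXN-AS1 alone lies beyond 2-fold, while IFI44L reaches -5.38 and IFI6 -3.67.

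The promoter motif was also counted beyond the effectors. The response element core was found for 24 of 34 other interferon-stimulated effectors with a window (70.6%), for 0 of 5 receptor genes and for 0 of 6 signal transducer genes, against 4.38% of all genes. Among tested genes outside the set, 27.2% of the 423 with the motif were called lower and 20.1% of the 10273 without it; this difference was not tested.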

How the data were processed

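The authors deposited 1 table of raw read counts per gene symbol for each of 6 libraries (poly-A RNA, 100 nt paired-end reads). CASAVA 1.8, the aligner STAR 2.6.0c, the counter featureCounts from Subread 1.6.2 and build hg19 are named, per the submitters' processing notes. The annotation, strand setting and treatment of multiply matching reads were not given in the sources used here, so values of antisense, overlapping and near-identical genes are uncertain. Counts do not part vector-borne from endogenous CDK12.

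Genes were kept with edgeR's filter (minimum count 10, minimum total 15), scaled with TMM and tested with edgeR 4.0.16 (quasi-likelihood test, R 4.3.3, Benjamini-Hochberg adjustment over 14665 genes, threshold 0.05). The SE of each log2 fold change was worked back from the statistic of this test. It therefore restates the test, and it can be smaller than the spread between a gene's own libraries implies. Centred profiles used log2 CPM with a prior count of 2. Of 14665 tested symbols, 14388 matched the RefSeq table that gave the neighbours. Intervals are 95% and exact, and cover counting error only. Tested on simulated counts for this comparison (14528 genes, 50 changed per fold), the fit found 88% of the genes with a 1.5-fold change, 96% of those with a 2-fold change and 100% of those with larger ones (4-fold and 8-fold). False calls made up 5.42%. The changed genes were drawn only from those above a limit on expected counts. They were also a far smaller share of genes than the 35.1% called in the data. The rates may therefore not hold for sparse genes such as IFI27 and MX2. The 10 genes and all lists were chosen with earlier results of these data known. Some listed genes are not reported here by name. Named in the text are all 10 genes, other listed genes, the 5 most similar profiles and neighbours by position. The 14 alternatives used DESeq2 1.42.0, limma 3.58.1, other scalings and filters, a replicate block and each library left out.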

Additional observations from a re-analysis of the deposited data

How the results depend on the processing

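Of 141 tested genes that are members, listed genes, neighbours or most similar profiles, 87 passed the threshold. None of these 87 changed sign under any of the 14 alternatives in which it was tested. Keeping the sign is a weaker check than keeping the call. Lost calls were counted for 99 of the 141 genes. These leave out the 10 and the receptors, signal transducers, regulatory factors, relatives and other IFI-named genes. Among the 99, 14 called genes lost the call under 1 or more alternatives. DNM1L, one of those left out, also lost its call. IFITM2, which did not pass, moved from -0.14 to 0.01 without control replicate 1. The number of the 10 genes called lower was 8 (18.9% of all genes), 7 with a filter of 1 CPM in 3 libraries, where IFI27 is not tested (19.3% of all genes), and 8 to 9 with 1 library left out (14.8% to 18.4%). The median log2 fold change of the 10 was -1.68, and -2.39 with that filter, which only 8 of them pass; with 1 library left out it ran from -1.83 to -1.32. Pathway genes called higher, with the relatives by structure or name included, numbered 7, 4 with the DESeq2 Wald test and 3 to 7 with 1 library left out. Neighbours called higher numbered 6, 2 with the DESeq2 Wald test and 3 to 6 with 1 library left out; the cause was not tested. Over all genes 46.1% of calls were higher, 59.6% with upper-quartile factors and 61.7% with total counts. With the replicate number as a block, 8 of the 10 genes were called lower (18.9% of all genes) with a median of -1.67, and 51 pathway genes fell and 7 rose. Same-numbered libraries did not deviate together (correlations of -0.07, 0.06 and 0.03), so the numbers were not taken as pairing. Depth limits IFI27, with 9 to 40 counts in a library, MX2, with 11 to 21, and IFI44L, with as few as 3 in a CDK12 library.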
